A study of Mus musculus with 5 samples.

Results

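The genes that encode the targets of fluorouracil and irinotecan, or the enzymes and transporters that act on these drugs, were followed in single cells of mouse colon tumors under treatment with both. The 10 genes followed were Tyms, Tk1, Dut, Umps, Upp1, Tymp, Dpyd, Top1, Abcg2 and Slc29a1. All 10 were among the 21947 genes listed in the treated libraries. They were chosen by name, with earlier results of these data known, so counts of members called are not those of an unselected set. The 4 treated inDrop libraries (droplet single-cell RNA-seq) came from AOM/DSS tumors of wildtype (WT) mice treated with 5FU+Irinotecan, day 1 (replicates 1 and 2), day 3 and day 6, and 1 library came from untreated WT colon dissociated to enrich fibroblasts. All treated groups share the tumor induction with azoxymethane (AOM), a mutagen, and dextran sulfate sodium (DSS), which injures the colonic lining, as well as both drugs, and the labels give no age. The study's methods place the harvest after the last of 3 drug cycles and call the days post-treatment. Its results instead speak of a regimen given for 1, 3 and 6 days, so the text is not uniform on how days are counted. Untreated tumors were not analysed here, so no value below is an effect of treatment. A BGI MGI-Seq was used for the single index libraries (day 1 replicate 1, day 3) and a NovaSeq6000 for the dual index ones (day 1 replicate 2, day 6 and the untreated colon). The labels do not tie libraries to mice, so every test measures the spread between these libraries.

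Fluorouracil is a uracil analogue that cells turn into fluorinated nucleotides. A fluorinated dUMP blocks thymidylate synthase, the enzyme that makes dTMP for DNA, and other products enter RNA and DNA, while dihydropyrimidine dehydrogenase starts the breakdown of the drug. Irinotecan is cleaved by carboxylesterases to SN-38, which traps topoisomerase I on DNA, so that advancing replication forks meet the trapped enzyme. Renewal of the colonic lining depends on dividing crypt cells, which make dNTPs during S phase, and dividing cells are where both drugs are known to do most of their damage.

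By role, the genes fall into the supply of thymidine nucleotides (Tyms, thymidylate synthase; Tk1, the cytosolic thymidine kinase of dividing cells; Dut, the dUTPase that keeps uracil out of DNA), the entry of fluorouracil into the nucleotide pools (Umps, uridine monophosphate synthetase; Upp1, uridine phosphorylase; Tymp, thymidine phosphorylase), its breakdown (Dpyd, dihydropyrimidine dehydrogenase), the target of SN-38 (Top1) and transport (Abcg2, which exports SN-38; Slc29a1, an equilibrative nucleoside carrier). In the RefSeq annotation of GRCm38, the build named for the deposited counts, Tyms lies on chromosome 5 (30038546 to 30073645, minus strand), Tk1 on chromosome 11 (117815519 to 117826087, minus strand) and Dut on chromosome 2 (125247248 to 125259049, plus strand). Dpyd spans chromosome 3 from 118562109 to 119432924, and Top1 spans chromosome 2 from 160645897 to 160722764, both on the plus strand. Because Tyms, Tk1 and Dut were the members that were higher in cycling cells of both epithelial classes, their promoter windows are shown, 250 bases before to 50 after a start listed in RefSeq (GRCm38.p6), 5′ to 3′ on the gene's strand. In each of the 3 genes this start lies inside the span given above and not at its outer end. The capitals mark GC boxes (GGGCGG, searched on both strands), the letters bound by Sp1-type factors.
Tyms, chr5:30073576-30073875, minus strand: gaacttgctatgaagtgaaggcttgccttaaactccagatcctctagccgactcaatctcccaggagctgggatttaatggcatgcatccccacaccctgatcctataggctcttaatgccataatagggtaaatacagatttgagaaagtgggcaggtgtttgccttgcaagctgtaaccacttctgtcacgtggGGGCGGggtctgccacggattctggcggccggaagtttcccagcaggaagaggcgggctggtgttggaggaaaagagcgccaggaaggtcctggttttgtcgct
Tk1, chr11:117825965-117826264, minus strand: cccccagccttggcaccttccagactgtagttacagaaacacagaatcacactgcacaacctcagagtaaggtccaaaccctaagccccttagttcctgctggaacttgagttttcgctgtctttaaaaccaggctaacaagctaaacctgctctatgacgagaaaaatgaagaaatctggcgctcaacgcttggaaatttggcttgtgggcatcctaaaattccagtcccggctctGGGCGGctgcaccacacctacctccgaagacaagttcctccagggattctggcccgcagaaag
Dut, chr2:125247265-125247564, plus strand: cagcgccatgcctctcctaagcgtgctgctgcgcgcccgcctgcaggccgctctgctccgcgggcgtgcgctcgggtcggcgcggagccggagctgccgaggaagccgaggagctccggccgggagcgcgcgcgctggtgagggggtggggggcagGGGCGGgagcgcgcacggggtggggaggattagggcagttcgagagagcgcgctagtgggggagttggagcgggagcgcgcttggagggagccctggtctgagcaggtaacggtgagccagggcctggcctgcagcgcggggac
Each of the 3 windows held 1 GC box, and 35.7% of all 32851 windows of the same length held at least 1. The E2F-type letters TTTCGCGC and TTTGGCGC, which 0.813% of windows held on either strand, were in none of the 3, and these are matches of letters only. The Dut window lies wholly within the annotated gene.

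After removal of barcodes with under 500 genes or over 15% mitochondrial UMIs, 7396 treated cells and 1095 cells of the untreated library remained. Treated libraries held 748 to 2826 kept cells and 5132360 to 16904947 UMIs, with medians of 2903 to 3601 UMIs per cell. Cells were clustered without the genes reported here and classed from markers: columnar (524, 1420, 993 and 1464 cells, listed here and throughout with both day 1 replicates first, then day 3, then day 6), squamous (54, 190, 277 and 725), stromal (29, 137, 116 and 153) and immune (134, 576, 33 and 482). The 12 squamous markers summed to 23630 to 47120 UMIs per 1e6 UMIs of the group (CPM) in squamous cells and 785 to 3342 CPM in columnar cells, where 11 or 12 of them were counted in each library. The 10 columnar markers summed to 8634 to 17990 CPM in columnar cells and 2343 to 6924 CPM in squamous cells. Different clusters held most columnar cells of each library, and 1 of the 14 columnar clusters (573 cells, mostly of day 1) had a mean log2 fold of only 0.08 over its columnar markers. The columnar class also takes in clusters named as secretory types. Without these, 276, 1239, 902 and 1327 columnar cells remained, so the mixture differed most in day 1 replicate 1. Leaving these clusters out was an alternative. A total of 159 barcode sequences occurred in more than 1 library. Epithelial cells were called cycling at 2 or more UMIs of Mki67 plus Top2a, a proliferation antigen and a mitotic topoisomerase, and non-cycling at 0. Neutrophil-like cells, of a type that does not divide when mature, held 102, 79.5, 139 and 51.4 CPM of Top2a, and columnar cells 81.6, 96.6, 168 and 227 CPM. With each cell thinned to 1000 UMIs, a Top2a UMI was found in 10.3%, 7.67%, 18.5% and 8.70% of neutrophil-like cells and in 9.54%, 6.97%, 18.6% and 18.3% of columnar cells, so that the columnar share was below this background in both day 1 libraries, about equal to it in day 3 and above it in day 6. These neutrophil-like shares rest on 7 of 68, 30 of 391, 5 of 27 and 2 of 23 thinned cells. The part of background Top2a in the cycling calls was not tested. Cycling columnar cells were deeper, with median UMIs of 18739, 15237.5, 7171.5 and 13653 against 2440.5, 3992, 2485 and 1618.5 in non-cycling ones, and levels are therefore given as CPM.

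**Figure D1:**
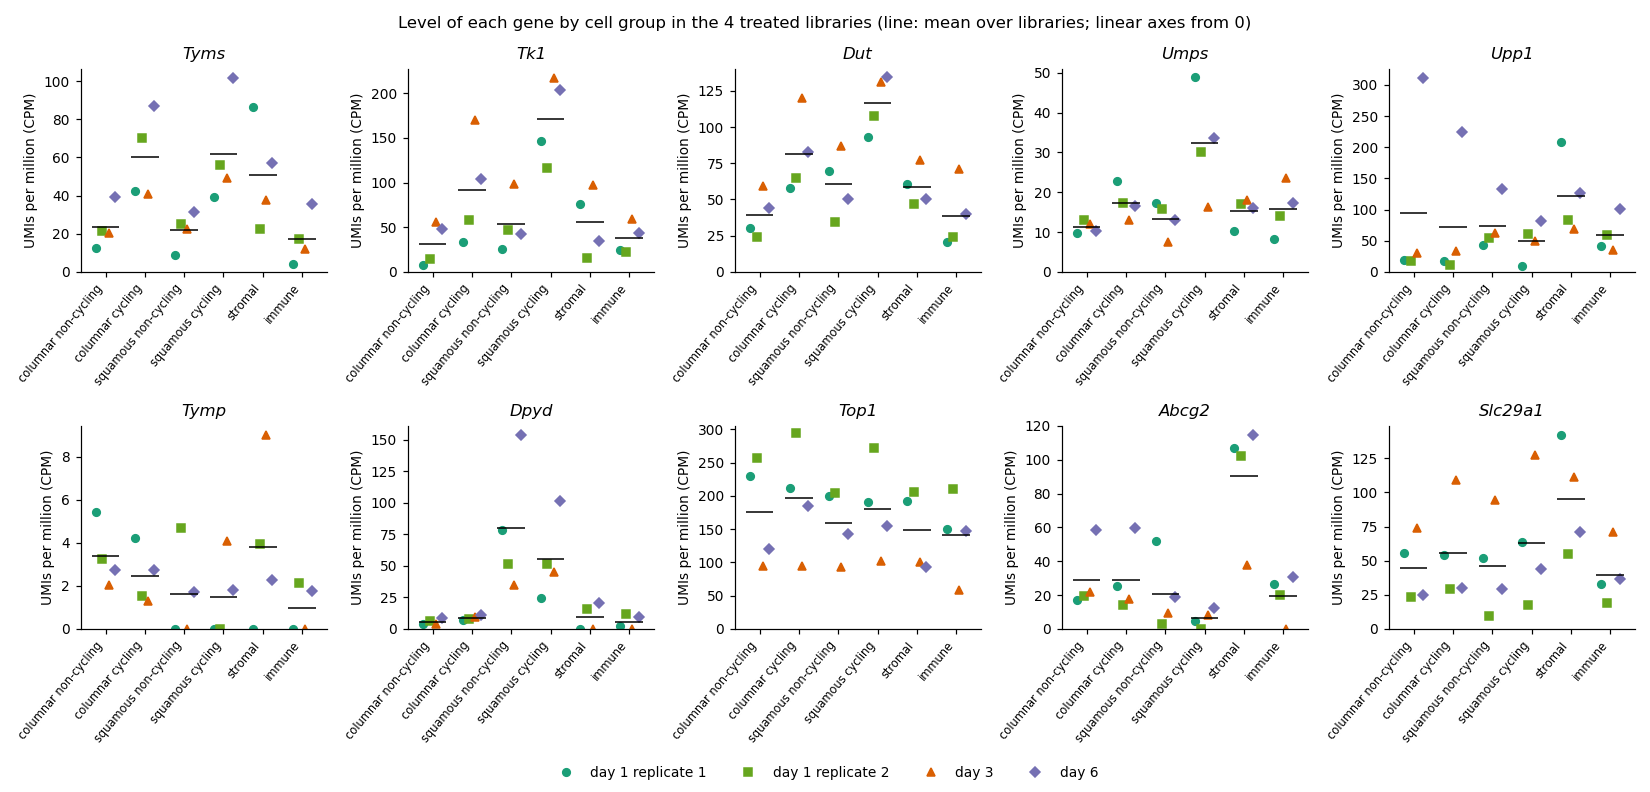
Level of each of the 10 genes (y axis, CPM, a separate linear axis per gene) in 6 cell groups (x axis); each point is 1 treated library and the line is the mean of the 4. Tyms, Tk1 and Dut are higher in cycling cells, Dpyd in squamous cells, and Upp1 in columnar cells of day 6, at 225 and 311 CPM.

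The first comparison was between cycling and non-cycling columnar cells of the same library, in which Tyms, Tk1 and Dut were higher in cycling cells in all 4 libraries and the other members tested did not pass the threshold. Tyms stood at 42.2, 70.0, 41.0 and 87.1 CPM in cycling columnar cells against 12.5, 21.6, 20.2 and 39.0 CPM in non-cycling ones, which do not overlap. Its fitted difference was 1.32 ± 0.15 on the log2 scale (SE, adjusted p = 0.000369, edgeR's quasi-likelihood test with library as a block and Benjamini-Hochberg adjustment over 11326 genes). Tk1 stood at 33.7, 57.9, 170.5 and 104 CPM in cycling cells and at 8.17, 14.1, 56.1 and 48.4 CPM in non-cycling cells. The ranges of Tk1 overlap across libraries, since non-cycling cells of day 3 were above cycling cells of day 1 replicate 1, while within each library cycling cells were higher. The fit gave 1.51 ± 0.16 (SE, adjusted p = 0.000307, edgeR). Dut stood at 58.2, 64.5, 120 and 82.7 CPM against 30.5, 24, 59.2 and 44.1 CPM, ranges that just overlap although cycling cells were higher within each library, a difference of 1.01 ± 0.12 (SE, adjusted p = 0.000497, edgeR).

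In columnar cells 3 of 9 members tested were called, all higher in cycling cells, beside 6.34% of all genes tested in either direction and 3.41% higher in cycling cells. Umps, which joins fluorouracil or orotate to ribose phosphate, differed by 0.50 ± 0.21 (SE, adjusted p = 0.191, edgeR). Upp1 differed by -0.44 ± 0.14 (SE, adjusted p = 0.0828, edgeR), and it was lower in cycling cells in 3 of 4 libraries. Dpyd, Top1, Abcg2 and Slc29a1 differed by 0.41, 0.12, -0.16 and 0.24, and Tymp was left out by the filter on low counts. The level of Top1, the target of SN-38, was 212, 294, 95.02 and 185 CPM in cycling cells and 229, 257, 94.6 and 121 CPM in non-cycling cells, with day 3 lowest and day 1 replicate 2 highest in both states.

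The 3 calls were lost in thinned cells. With each cell thinned to 1000 UMIs and its state read from the thinned counts, day 1 replicate 1 fell out with 9 cycling cells, and over the other 3 libraries Tyms, Tk1 and Dut differed by 0.83, 0.82 and 1.07, with adjusted p of 0.643, 0.446 and 0.280 in edgeR. Thinned cells kept in the states of their full counts held a Tyms UMI in 6.15%, 7.43%, 2.60% and 8.96% of cycling columnar cells and in 1.47%, 2.47%, 2.51% and 4.63% of non-cycling ones, near equal in day 3. For Tk1 these shares were 4.62%, 3.96%, 12.5% and 12.2% against 0.882%, 2.02%, 7.74% and 8.37%. For Dut they were 7.69%, 4.46%, 6.77% and 8.96% against 1.77%, 1.91%, 7.16% and 5.38%, so that in day 3 the share was lower in cycling cells. In squamous cells of day 1 replicate 1 a UMI of Tyms, of Tk1 and of Dut was each held by 0 of 19 thinned cycling cells and 1 of 27 non-cycling ones. For Tk1 in squamous cells of day 1 replicate 2, day 3 and day 6 the shares were 6.90%, 17.1% and 16.5% in cycling cells. In non-cycling ones they were 7.35%, 9.55% and 4.3%. Without thinning, 24.5% to 45.1% of cycling columnar cells held a Tyms UMI, beside 2.94% to 4.604% of neutrophil-like cells, which had median depths of 1419 to 2289 UMIs.

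Other genes of S phase were also higher in cycling cells. The split by Mki67 plus Top2a picks dividing cells, so this was likely beforehand in either epithelial class. The lists were also chosen with earlier results of these data known, so their values are no separate support for the members. Of 23 S phase genes, 18 of 20 tested were higher in cycling columnar cells, with a median log2 difference of 1.15 beside -0.02 over all genes, led by Clspn (2.79), Pola1 (1.75) and Prim1 (1.56), a checkpoint adaptor and a pair of primase-polymerase subunits. Of the 23 genes of thymidylate, folate and dNTP synthesis, 5 were higher and 1 lower. The higher ones included Rrm2 (1.51) and Rrm1 (1.26), the subunits of ribonucleotide reductase, and the lower one was the folate carrier Slc46a1 (-0.57). In the repair list, Ung (0.97), which cuts uracil out of DNA, and Tdp1 (0.78), which frees trapped topoisomerase I from DNA, were higher among 8 tested. Of 8 genes tested for irinotecan conversion, the carboxylesterase gene Ces2c was lower (-0.99), and no gene passed among 11 of pyrimidine salvage and breakdown and 11 transporters.

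In squamous cells the same 3 members were called. Tyms stood at 39.2, 56.1, 49.2 and 102 CPM in cycling squamous cells and at 8.69, 25.1, 22.2 and 31.3 CPM in non-cycling ones, with no overlap, although 1 UMI underlies the lowest value. The fitted difference was 1.46 ± 0.23 (SE, adjusted p = 0.000531, edgeR over 6485 genes). Tk1 stood at 147, 117, 217 and 203 CPM against 26.1, 47.1, 98.1 and 42.6 CPM, again with no overlap, a difference of 1.71 ± 0.20 (SE, adjusted p = 3.86e-05, edgeR). Dut stood at 93.1, 108, 131 and 135 CPM against 69.5, 34.5, 87.0 and 50.6 CPM, with no overlap, and differed by 1.10 ± 0.20 (SE, adjusted p = 0.00193, edgeR). Its call was lost without day 1 replicate 2 (0.99, adjusted p = 0.051) and without day 6 (0.87, adjusted p = 0.224, edgeR). Day 6 supplied 183 of the cycling squamous cells and the other libraries 19, 29 and 41. Without it Tyms fell under the filter on low counts and Tk1 alone was called, at 1.31 (adjusted p = 0.00421, edgeR). In thinned cells with cycling set at 1 UMI, Tyms and Tk1 were not tested. Dut was tested there and not called, with a difference of 0.85 (adjusted p = 0.523, edgeR).

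Of 7 members tested 3 passed, all higher in cycling cells, beside 3.3% of genes in either direction and 2.22% higher. Upp1 and Dpyd differed by -0.63 and -0.54 between cycling and non-cycling squamous cells, with adjusted p of 0.153 and 0.250 in edgeR. Top1 differed by 0.11 and Slc29a1 by 0.46, and Umps, Tymp and Abcg2 were not tested. Of the S phase genes 12 of 13 tested were higher in cycling squamous cells, and of the dNTP list Rrm2 (1.90) and Rrm1 (1.43). The cycling difference itself did not differ detectably between squamous and columnar cells. In an interaction fit over 11705 genes edgeR called 0.0% of genes and DESeq2 called 0, with 261 genes at an unadjusted p below 0.05. The interaction was 0.08 ± 0.31 for Tyms, 0.24 ± 0.48 for Tk1 and 0.07 ± 0.30 for Dut (SE), and differences of the order of these errors would not have been detectable.

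**Figure D2:**
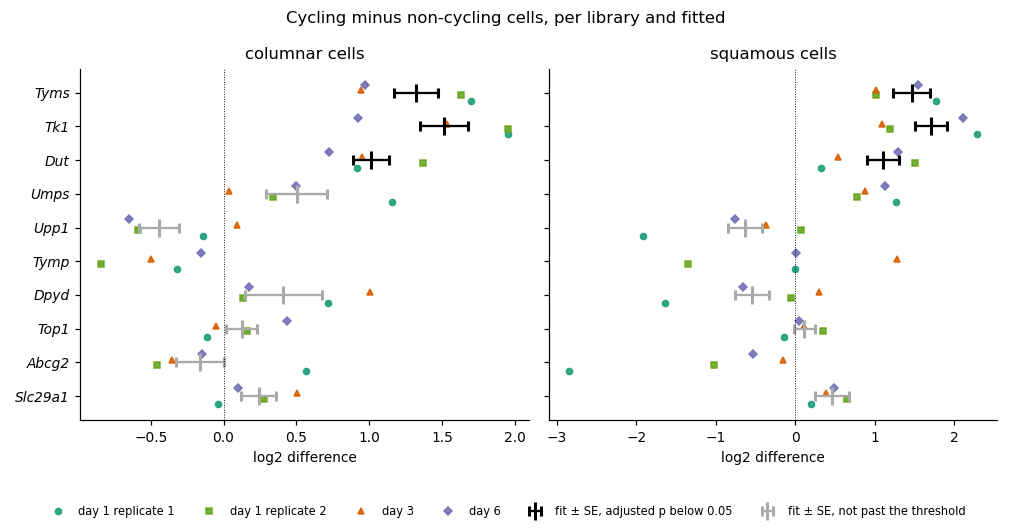
Log2 difference between cycling and non-cycling cells (x axis) for the 10 genes (y axis) in columnar (left) and squamous cells (right); points are the 4 treated libraries and bars the fitted difference with its SE, black where the adjusted p passed 0.05. Tyms, Tk1 and Dut lie to the right of 0 in every library of both classes.

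The second comparison set squamous, stromal and immune cells against columnar cells of the same library. Dpyd, the gene whose product degrades fluorouracil, was higher in squamous than in columnar cells in all 4 libraries. It stood at 51.2, 52.0, 30.8 and 138 CPM in squamous cells and at 5.19, 6.76, 7.17 and 11.02 CPM in columnar cells, with no overlap. The fitted difference was 3.12 ± 0.38 (SE, adjusted p = 2.48e-05, edgeR), and over 10 alternatives it ranged from 2.88 to 3.45 and passed in each, while in thinned cells it was under the filter on low counts and was not tested. Between 9.39% and 39.9% of squamous cells held a Dpyd UMI, against 3.05% to 5.35% of columnar cells and 0% to 2.30% of neutrophil-like cells, with median depths of 2532 to 5685, 2176 to 5365 and 1419 to 2289 UMIs. Day 6 was highest in squamous cells, with squamous cells also deepest there, and the levels ran from 41.2 to 194 CPM between 3 squamous clusters.

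Tk1 and Dut were also higher in squamous cells and Abcg2 was lower. Tk1 stood at 94.4, 61.7, 143 and 105 CPM in squamous cells against 17.6, 27.0, 101 and 72.6 CPM in columnar cells. The log2 differences were 2.46, 1.41, 0.62 and 0.48, and the fitted difference was 1.13 ± 0.33 (SE, adjusted p = 0.0223, edgeR). Dut differed by 0.70 ± 0.18 (SE, adjusted p = 0.0113, edgeR). Both calls were lost without either day 1 library and in thinned cells, where Tk1 differed by 0.60 and Dut by 0.74, with adjusted p of 0.343 and 0.0691 in edgeR. Cycling cells numbered 19 of 54 squamous and 65 of 524 columnar cells in day 1 replicate 1, and 41 of 277 and 192 of 993 in day 3. Among non-cycling cells of day 6, Tk1 was lower in squamous cells, at 42.6 against 48.4 CPM. In the other libraries it was higher, and Dut was higher in each library. The part of cycling cells in these class differences was not tested. Abcg2, the exporter of SN-38, stood at 18.9, 3.86, 7.04 and 15.2 CPM in squamous cells, from 7, 4, 8 and 70 UMIs, and at 20.8, 17.0, 21.7 and 62.9 CPM in columnar cells. In day 1 replicate 1 the groups hardly differed (log2 difference -0.05), and in the other 3 libraries squamous cells were lower. The fit gave -1.49 ± 0.39 (SE, adjusted p = 0.0118, edgeR), and without day 6 the adjusted p was 0.138.

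Of 9 members tested 4 were called between squamous and columnar cells, beside 21.1% of all genes. Tyms stood at 29.7, 28.9, 24.6 and 57.5 CPM in squamous cells and at 22.3, 34.2, 27.0 and 62.2 CPM in columnar cells, a difference of 0.04 ± 0.32 (SE). Top1 and Slc29a1 differed by -0.10 ± 0.18 and 0.01 ± 0.26 (SE), and Umps by 0.64 ± 0.27 (SE, adjusted p = 0.115, edgeR). Among transporters the paralogous exporters parted: Abcb1b was higher in squamous cells (2.35) while Abcb1a (-2.13), Abcc2 (-2.51) and Abcc3 (-0.85) were lower, out of 10 tested. Reads of Abcb1a and Abcb1b could have been divided wrongly between near-identical stretches. Of 23 dNTP and folate genes 6 were higher, led by Rrm2 (1.56), Shmt2 (1.07) and Rrm1 (1.00), and 2 lower, Slc46a1 (-1.38) and Cmpk1 (-0.88). Of 19 S phase genes tested, 7 were higher and none lower. Of 8 genes of irinotecan conversion, Ces1d (1.51) and Ces2g (1.48) were higher and Ces2c (-1.69) lower, and in the repair list Xrcc1 (1.00) and Tdp1 (0.87) were higher among 8.

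In stromal cells, Abcg2 and the nucleoside carrier Slc29a1 were higher than in columnar cells. Abcg2 stood at 107, 102, 37.8 and 114 CPM in stromal cells, above columnar cells of the same library in all 4. The fitted difference was 1.53 ± 0.34 (SE, adjusted p = 0.00271, edgeR), and without day 1 replicate 2 the adjusted p was 0.0504. Slc29a1 stood at 142, 54.9, 112 and 70.9 CPM against 51.7, 25.6, 88.3 and 25.2 CPM in columnar cells. It differed by 0.98 ± 0.26 (SE, adjusted p = 0.0101, edgeR), a call lost without day 1 replicate 1 and in thinned cells, with adjusted p of up to 0.157. Of 9 members tested 2 passed, beside 27.3% of all genes.

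The stromal class joins fibroblast-like, endothelial-like and lymphatic-like cells, and Abcg2 was unequal among them. In endothelial-like cells it stood at 158, 185, 51.1 and 233 CPM, from 21, 55, 17 and 13 UMIs, and in fibroblast-like cells at 0, 29.5, 0 and 30.9 CPM. Lymphatic-like cells of day 1 replicate 2, day 3 and day 6 stood at 69.9, 34.9 and 146 CPM. The 7 endothelial markers, all counted in both classes, summed to 1985 to 4925 CPM in stromal cells and 20.9 to 54.1 CPM in columnar cells. The share of each type in the stromal class differed between libraries, with 12, 61, 59 and 15 endothelial-like cells, and its part in the stromal level was not tested. Slc29a1 stood at 87.4, 114 and 109 CPM in the lymphatic-like cells of day 1 replicate 2, day 3 and day 6. In endothelial-like cells Slc29a1 stood at 180, 63.8, 105 and 18.0 CPM, from 24, 19, 35 and 1 UMIs. In fibroblast-like cells it stood at 0, 12.6, 129 and 37.1 CPM. Other transporters called in stromal cells were Abcb1b (3.10) and Abcc5 (1.16), which were higher, and Slc28a3 (-2.42), Abcc2 (-1.97) and Abcc3 (-1.27), which were lower.

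Of the folate and dNTP list, 2 of 23 genes were higher and 5 lower in stromal cells, near the 27.3% of all genes called. The higher ones included Fpgs (2.15), which adds glutamates to folates, and the lower ones were led by Shmt1 (-1.26), Slc46a1 (-1.03) and Cmpk1 (-0.93). Mbd4 (1.70) was higher and Smug1 (-0.82) lower among the repair genes, Ces1g (1.75) higher and Cyp3a13 (-1.72) lower among the irinotecan genes, and Nt5c3 (-0.67) lower among the pyrimidine genes, while Uhrf1 (-2.21) was the S phase gene that passed. The class shift of all genes was -0.12 in the edgeR fit and -0.01 in DESeq2, so differences near that size carry no direction.

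No member was called in immune against columnar cells, where edgeR called 26.9% of 11355 genes, DESeq2 called 3268 genes and 0 of 9 members tested had an unadjusted p below 0.05. Tyms was lower in immune cells in all 4 libraries, at 4.12, 17.2, 11.8 and 35.7 CPM, with a fitted difference of -0.72 ± 0.37 (SE, adjusted p = 0.165, edgeR). Upp1 was unequal among immune types. It stood at 102, 97.8, 30.9 and 642 CPM in neutrophil-like cells, from 17, 91, 2 and 25 UMIs, and at 14.1, 22.7 and 102 CPM in macrophage-like cells of day 1 replicates 1 and 2 and day 6. Immune cells of day 3 numbered 33, with 0 of 84710 UMIs from each of Abcg2, Dpyd and Tymp. Without day 6, Upp1 was called higher than in columnar cells in immune cells (1.51, adjusted p = 0.0237, edgeR). The same held in stromal and squamous cells without day 6, with adjusted p of 0.000759 and 0.0261 in edgeR. Of the related lists, Samhd1 (2.97), which breaks down dNTPs, Dck (1.81), which phosphorylates deoxycytidine, and Tk2 (1.05), the mitochondrial thymidine kinase, were higher in immune cells, and 4 of the dNTP genes were lower, led by Slc46a1 (-1.40), Cda (-1.10) and Dtymk (-0.80). Uck2 (0.98), Parp1 (0.78), Abcb1b (2.98) and Slc29a3 (1.78) were higher, and Upp2 (-1.06), Smug1 (-1.09), Ces2e (-1.65) and Abcc2 (-1.74) were lower.

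**Figure D3:**
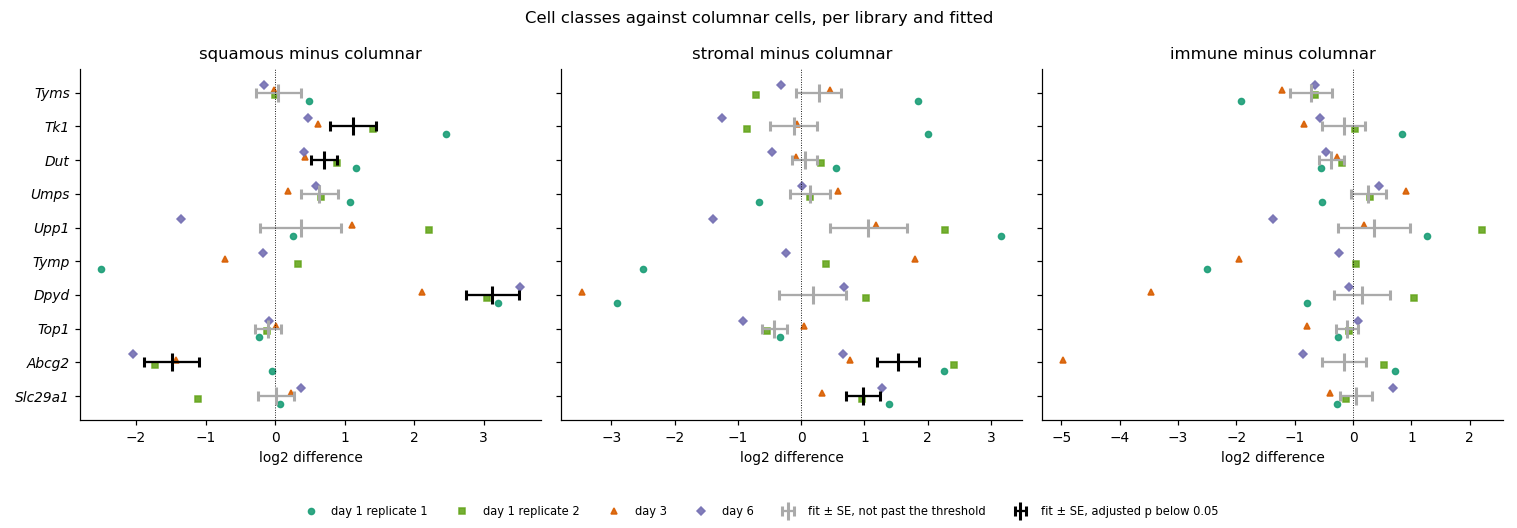
Log2 difference of squamous, stromal and immune cells against columnar cells of the same library (x axis) for the 10 genes (y axis); points are the 4 treated libraries and bars the fitted difference with its SE, black where the adjusted p passed 0.05. Dpyd is higher in squamous cells in all 4 libraries, and Abcg2 and Slc29a1 are higher in stromal cells.

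**Figure D4:**
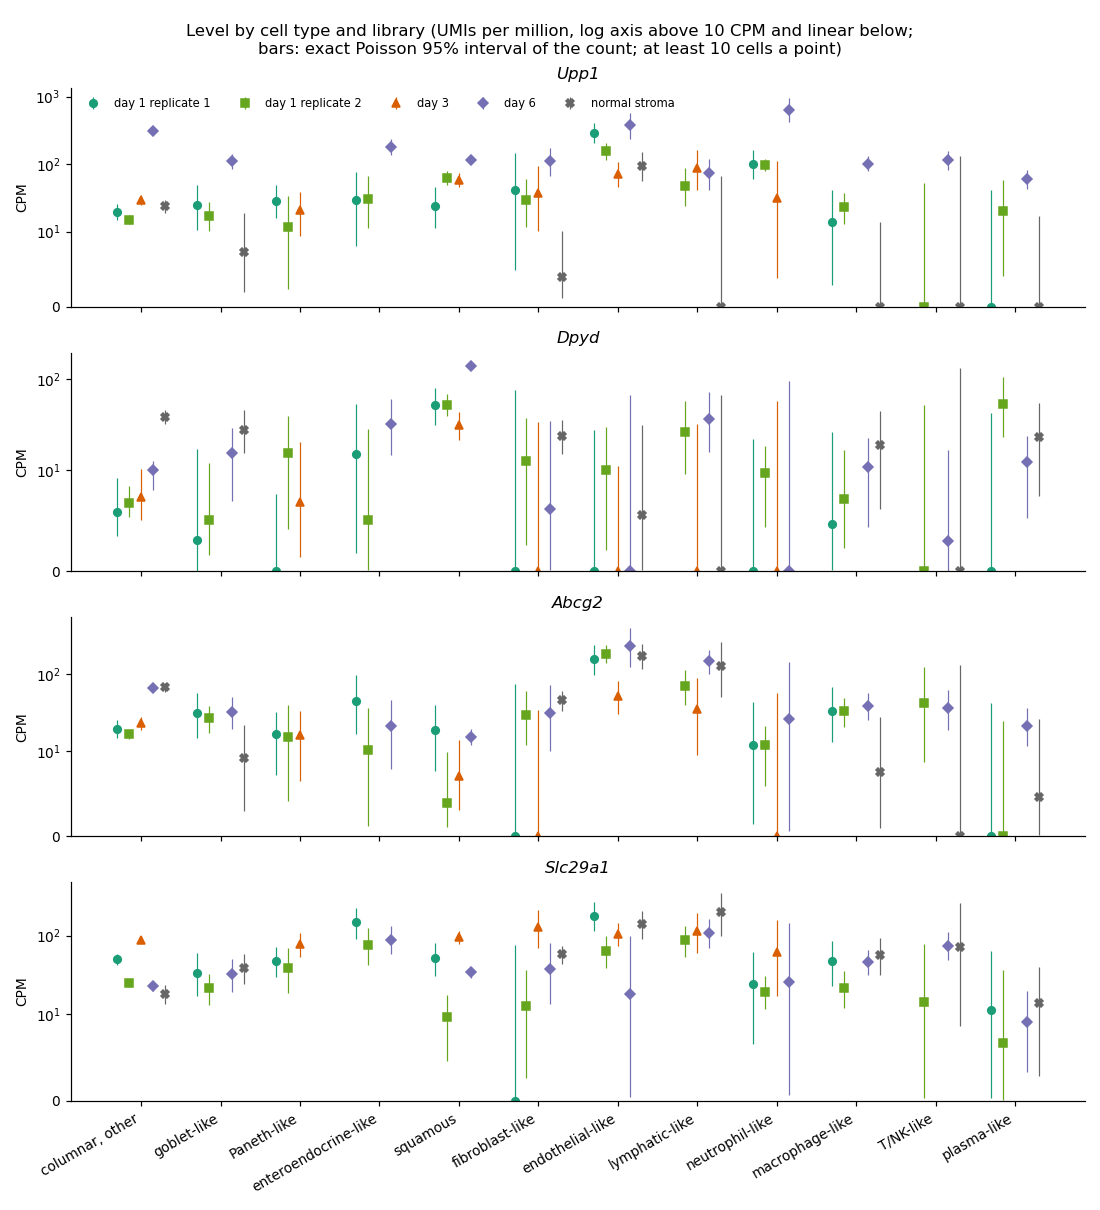
Level of Upp1, Dpyd, Abcg2 and Slc29a1 (y axis, CPM, logarithmic above 10 CPM and linear below) by cell type (x axis) in the 4 treated libraries and the untreated one; bars are exact Poisson 95% intervals of the count. Abcg2 is highest in endothelial-like cells of each treated library, at 51.1 to 233 CPM, Upp1 stands at 72.1 to 377 CPM in these cells, and columnar cells of day 6 other than secretory types hold 305 CPM of Upp1.

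The third comparison was of late (day 3 and day 6) with early (both day 1) libraries. Here edgeR called 0.0% of genes in non-cycling columnar, cycling columnar and non-cycling squamous cells alike, with 1705, 1249 and 322 genes at an unadjusted p below 0.05, while DESeq2 called 311, 202 and 6 genes. No member was called by edgeR, and 4 of 9, 3 of 9 and 0 of 8 members tested had an unadjusted p below 0.05. The levels of the members by library follow as a description.

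Tk1 was the member with the smallest adjusted p. In non-cycling columnar cells it stood at 8.17 and 14.1 CPM in the day 1 libraries and at 56.1 and 48.4 CPM in day 3 and day 6, a difference of 2.60 ± 0.42 (SE, adjusted p = 0.198, edgeR), with log2 differences of 2.96 between the single index libraries and 2.26 between the dual index ones. In cycling columnar cells the difference was 1.85 ± 0.44 (SE, adjusted p = 0.283, edgeR), and in non-cycling squamous cells, where day 6 lay between the day 1 libraries, 0.92 ± 0.64 (SE, adjusted p = 0.996, edgeR). DESeq2 called Tk1 and Upp1 in both columnar states (adjusted p = 0.00115 and 0.0309 for Tk1). Dut followed Tk1 in columnar cells, at 30.5 and 24 CPM in the day 1 libraries and 59.2 and 44.1 CPM later in the non-cycling state, a difference of 1.32 ± 0.38 (SE, adjusted p = 0.271, edgeR). Tyms overlapped, since day 3 (20.2 CPM) lay below day 1 replicate 2 (21.6 CPM).

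In columnar cells Upp1 set day 6 apart from the other treated libraries. Non-cycling columnar cells held 19.6, 17.2, 29.8 and 311 CPM of Upp1 and cycling ones 17.7, 11.5, 33.2 and 225 CPM. The late against early difference was 3.70 ± 1.08 (SE, adjusted p = 0.278, edgeR) in non-cycling cells, and without day 6 it was 1.03. Between the single index libraries it was 0.87 and between the dual index ones 4.66. In day 6 a Upp1 UMI was found in 47.3% of columnar cells, against 11.2% to 12.4% in the other treated libraries, and in thinned cells the shares were 22.1% in day 6 and 1.20% to 3.63% elsewhere. Neutrophil-like cells are no background for Upp1, since 7.41% to 50.0% of them held it, with the highest share in day 6. All other classes of day 6 also held Upp1, at 117 CPM in squamous, 126 CPM in stromal and 100 CPM in immune cells. Stromal cells of day 1 replicate 1 stood above those of day 6, at 208 CPM from 41 UMIs. Those of day 1 replicate 2 and day 3 held 83.7 and 68.3 CPM. Within the columnar clusters of day 6, Upp1 ranged from 165 to 589 CPM in the 3 largest, and the cluster at 589 CPM, 228 cells, also held the most Abcg2 of these 3, at 112 CPM.

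Abcg2 likewise was highest in columnar cells of day 6, at 16.9, 19.3, 21.8 and 58.3 CPM in the non-cycling state. Its difference was 1.60 ± 0.58 (SE, adjusted p = 0.300, edgeR), with 0.63 between the single index libraries and 2.09 between the dual index ones. Top1 went the other way, at 229 and 257 CPM in day 1 libraries and 94.6 and 121 CPM later in non-cycling columnar cells, at 212 and 294 CPM then 95.02 and 185 CPM in cycling ones, and at 200 and 204 CPM then 92.5 and 143 CPM in non-cycling squamous cells. Late libraries were lower in all 3 groups without overlap, and the fitted differences were -0.75 ± 0.38, -0.57 ± 0.44 and -0.64 ± 0.52 (SE, adjusted p = 0.418, 0.665 and 0.996, edgeR). In non-cycling columnar cells the groups did not overlap for 5 of 9 members tested, 4 higher and 1 lower in late libraries, beside 10.6% of all genes higher and 41.2% lower. In cycling columnar cells they did not overlap for 6 of 9 members, 4 higher and 2 lower, beside 11.4% of genes higher and 35.2% lower. In non-cycling squamous cells they did not overlap for 2 of 8 members, 1 higher and 1 lower, beside 12.1% and 20.1% of genes.

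Squamous markers in columnar cells moved with the same split, summing to 1313 and 785 CPM in day 1 and to 2775 and 3342 CPM later, and plasma cell markers summed to 1037 CPM in columnar cells of day 6 against 38.7 to 381 CPM in the others. Their part in the late against early values was not tested. Each late day is 1 library, so day and library cannot be told apart.

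**Figure D5:**
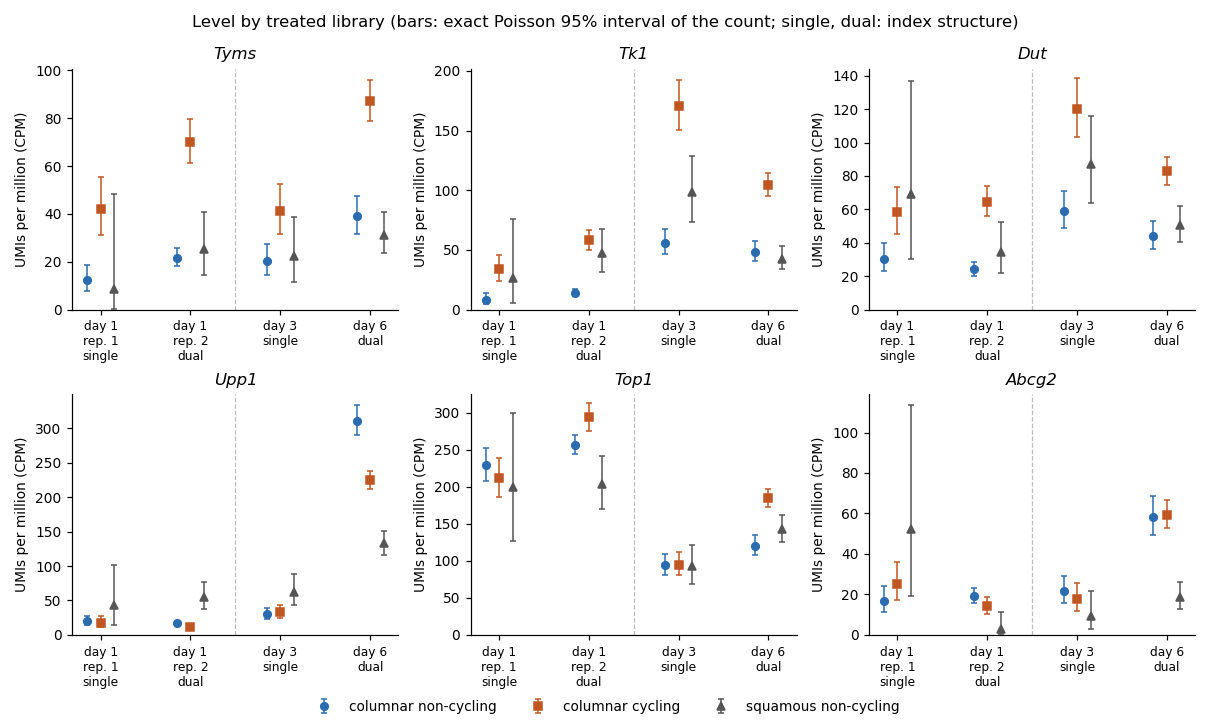
Level of 6 of the genes (y axis, CPM, linear) in the 4 treated libraries (x axis, with the index structure of each) for non-cycling columnar, cycling columnar and non-cycling squamous cells; bars are exact Poisson 95% intervals of the count and the dashed line divides day 1 from later days. Upp1 is at 225 to 311 CPM in columnar cells of day 6 and under 34 CPM in those of the other libraries, and Top1 is lower in both late libraries.

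Slc29a1 was higher in both single index libraries than in both dual index ones in columnar, squamous and stromal cells. Columnar cells of the single index libraries held 51.7 and 88.3 CPM and those of the dual index libraries 25.6 and 25.2 CPM. Squamous cells held 51.2 and 95.02 CPM against 9.64 and 34.0 CPM, and stromal cells 142 and 112 CPM against 54.9 and 70.9 CPM, with no overlap in any of these classes. Immune cells of day 1 replicate 1, at 32.9 CPM, lay below those of day 6, at 36.8 CPM. This split of the libraries was not tested. The share of all genes that divide the libraries in this way was not computed, so the split is a description only. The sequencer and the library structure changed together and cannot be told apart.

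Umps and Tymp were low throughout. Umps held 9.80, 13.1, 12.1 and 10.2 CPM in non-cycling columnar cells and 49.0, 30.2, 16.4 and 33.7 CPM in cycling squamous cells, from 10, 7, 4 and 56 UMIs. Tymp held 15, 33, 10 and 23 UMIs in columnar cells, at 3.71, 2.56, 2.05 and 2.46 CPM. In squamous cells Tymp was seen in 0, 3, 1 and 10 UMIs, and it passed the filter on low counts in none of the 9 comparisons. At this depth no difference between cell groups was detectable for Tymp.

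Over the 24 sums of 6 cell groups in 4 libraries, Tk1 and Dut were alike, with a Pearson correlation of log2(CPM + 1) of 0.86, and Tyms correlated with Tk1 at 0.61 and with Dut at 0.58. Among 7857 genes with a mean of 20 CPM or more, the genes most like Tk1 were Incenp, Racgap1, Pcna, Cdk1 and Mcm5 (0.92 to 0.89), those most like Dut were Incenp, Fam83d, Cdca8, Iqgap3 and Rrm1 (0.95 to 0.88), and those most like Tyms were Mcm6, Spc24, Tpx2, Brip1os and Ctbp1 (0.83 to 0.76). Dpyd was most like Rassf10, Ntm, Mab21l3, Foxp2 and Dsg3 (0.87 to 0.84), the last a desmoglein of stratified epithelium and one of the squamous markers used to class the cells. The genes most like Upp1 included Ubd, Iigp1, Tmem9b and Gbp2 (0.77 to 0.72), Ubd, Iigp1 and Gbp2 being interferon-inducible genes. Abcg2 was most like Nov, Pik3r1, Stat2, Abcb1a and Klhl22 (0.82 to 0.77). Top1 was most like mt-Cytb, Cstf3, mt-Nd2, Tmod3 and Pum2 (0.94 to 0.91), with mitochondrial transcripts among them, and Slc29a1 was most like Vps72, Slc38a10, Cyb5r3, Pnkd and 2810025M15Rik (0.92 to 0.85). Umps was most like Prmt3, Anp32b, BC052040, Arl6ip6 and Prkrir (0.77 to 0.70) and Tymp like Psmd5, Mon1a, Nedd4l, Armc8 and Ghitm (0.70 to 0.64). The 24 sums share 4 libraries, so a gene that differs between libraries correlates with others that do. Epithelial sums were also split by Mki67 plus Top2a, so genes that differ between cycling states correlate through this grouping as well.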

How the data were processed

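inDrop libraries were measured in 4 treated tumor samples and 1 untreated sample, and groups came from the labels. The authors aligned the reads to GRCm38 with dropEst and deposited raw UMI counts per gene and cell, from which all levels were computed. The 10 genes, the gene lists and the markers were chosen with earlier results of these data known. Cells with at least 500 genes and at most 15% mitochondrial UMIs were kept. They were clustered (scanpy 1.11.5, leidenalg 0.10.2, 2000 variable genes without the reported genes, 20 components, 20 neighbours, resolution 1) into 28 treated clusters, which were classed from markers, and Epcam, Phgr1, Ugt1a6b and Ugt1a9 were not analysed here. Scrublet marked 12 of 7396 treated cells and so did not work as a doublet caller. No cell was removed as a doublet, and leaving out the highest-scored 6% was an alternative.

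Counts were summed per library and cell group of at least 10 cells. Sums were tested with edgeR 4.0.16 (R 4.3.3; TMM, filterByExpr, quasi-likelihood F test, library as a block for cell groups) and Benjamini-Hochberg adjustment over all genes tested at 0.05, with DESeq2 1.42.0 as an alternative. These steps were tested on simulated data. A fitted log2 change is shrunk by a prior count, and its SE is that of the unshrunk fit. Besides the 10 genes, up to 3 genes per direction with the largest change past the threshold were named from each list (102 genes, 100 of them in the treated files), and 5 genes most like each member among genes with a mean of at least 20 CPM. A few genes that this rule picks are not reported here. Thinned cells were reduced to 1000 UMIs. Intervals cover counting error only.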

Additional observations from a re-analysis of the deposited data

Results flagged for a closer look

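In 5 cases the 2 early libraries moved one way and the 2 late libraries the other, or 2 cell groups did. None of these differences was tested, and the values are log2 differences in the order day 1 replicate 1, day 1 replicate 2, day 3 and day 6. Tyms in squamous minus columnar cells was 0.49, 0.0031, -0.0141 and -0.16, values that lie mostly near 0. Dut in stromal minus columnar cells was 0.56, 0.32, -0.0841 and -0.46. Tk1 in immune minus columnar cells was 0.83, 0.0279, -0.84 and -0.57. Abcg2 in immune minus columnar cells was 0.71, 0.53, -4.97 and -0.86, and the day 3 value rests on 0 UMIs in 33 cells and on the value added before the logarithm, so it is no bound. Umps in late minus early libraries was 0.56 (single index) and 0.17 (dual index) in non-cycling columnar cells, and -0.82 and -0.17 in non-cycling squamous cells.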

How the results depend on the processing

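No member called in the report changed direction under any alternative run, and of their values 109 stayed past the threshold and 20 did not. Of values not called in the report, 562 kept direction and side, 23 passed the threshold and 63 changed sign. The weak columnar cluster and the thinned cells with cycling at 1 UMI were chosen after seeing the data. Thinned cells with cycling at 2 UMIs could not be compared in squamous cells or in the interaction, since day 6 alone kept at least 10 cycling squamous cells. Pairing by replicate number was not possible, because the labels number replicates for day 1 only. Library was a block in every comparison of cell groups, and index structure was a block in an alternative for late against early libraries. The cause of each change was not tested. Small counts and 4 libraries limit Umps and Tymp most.

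Genes called between cycling and non-cycling columnar cells numbered 1185 without the filter on low counts, 364 in DESeq2, 193 thinned, 388 with cycling at 1 UMI, 75 with both, and 372 to 900 without 1 library, and 0 members were called in either thinned set. In squamous cells the genes numbered 356 without the filter, 103 in DESeq2, 132 at 1 UMI, 27 with thinning at 1 UMI and 68 to 259 without 1 library. The members called there were 0 in the thinned set, where Tyms and Tk1 were not tested, and 1 to 3 without 1 library. The interaction called 3 genes without the filter. For squamous, stromal and immune against columnar cells, thinning gave 966, 1215 and 1483 genes and 1, 1 and 0 members; leaving out 1 library gave 1564 to 2325, 1787 to 3095 and 1647 to 3075 genes and 2 to 4, 1 to 3 and 0 to 1 members. Late against early, non-cycling columnar cells gave 774 genes and 3 members without the filter, 311 and 2 in DESeq2, 10 genes with index structure as covariate, and 0 to 1410 genes and 0 to 4 members without 1 library. Cycling columnar cells gave 555 and 2, 202 and 2, 181 genes, and 5 to 631 genes and 0 to 2 members. Non-cycling squamous cells gave 49, 6, 28 and 0 to 134 genes, with 0 to 1 members.

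Sign changes are log2 differences. Thinned cells: between cycling states of columnar cells Top1 -0.12 and Slc29a1 -0.039; against columnar cells Upp1 in squamous -0.15, Dut in stromal -0.17, Dut in immune 0.12 and Slc29a1 in immune cells -0.12. With thinning at 1 UMI, Slc29a1 was -0.14 in columnar cells, and the interaction was -0.0828 for Dut, 0.17 for Upp1 and 0.105 for Top1. The Tyms interaction was -0.0009 with cycling at 1 UMI. Clustering at resolution 2 gave interactions of -0.0454 for Tyms and -0.0458 for Dut, Tyms -0.0277 in squamous, Dut -0.0177 in stromal, and Umps 0.0203 late in cycling columnar cells. Without the weak cluster, the Dut interaction was -0.0037, Tyms -0.067 and Top1 0.0277 in squamous, Dut -0.0748 in stromal, Top1 0.0338 in immune, and Umps 0.0798 late in cycling columnar cells. Without the filter, squamous Tyms was -0.0608 and Slc29a1 -0.0933, stromal Dut -0.0424 and immune Slc29a1 -0.0343. With the clusters named columnar alone, squamous Tyms was -0.0431. DESeq2 gave Tk1 0.0121 and Dpyd -0.0461 in stromal and Dpyd -0.11 in immune cells, where leaving out the highest Scrublet scores gave -0.0385. With index as covariate, late Abcg2 in squamous cells was 0.25.

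Without 1 library, interactions ranged from -0.34 to 0.29 for Tyms, -0.32 to 0.55 for Tk1, -0.22 to 0.25 for Dut and -0.12 to 0.12 for Top1. Squamous differences ranged from -0.0726 to 0.12 for Tyms, -0.13 to 1.42 for Upp1 and -0.0902 to 0.24 for Slc29a1. Stromal ones ranged from -0.20 to 0.64 for Tyms, -0.63 to 0.26 for Tk1, -0.0778 to 0.25 for Dut and -0.44 to 0.79 for Dpyd. Immune ones ranged from -0.36 to 0.0101 for Tk1, -0.28 to 1.51 for Upp1, -0.62 to 0.44 for Dpyd, -0.43 to 0.26 for Abcg2 and -0.24 to 0.19 for Slc29a1. Late differences ranged from -0.10 to 1.14 for Dpyd and -0.16 to 1.495 for Slc29a1 in non-cycling columnar cells, from -0.20 to 0.91 for Tyms, -0.38 to 0.11 for Umps and -0.14 to 1.70 for Slc29a1 in cycling ones, and from -0.64 to 1.45 for Dpyd and -1.66 to 2.24 for Abcg2 in non-cycling squamous cells.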

Other observations

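The untreated library, with 397 columnar cells from a dissociation for fibroblasts, belongs to no comparison of the report, and each value is from 1 library. Its columnar cells held 36.9 CPM of Dpyd, from 135 UMIs, where treated columnar cells held 5.19 to 11.02 CPM. Tk1 stood at 181 CPM in its 38 cycling columnar cells and at 7.66 CPM in its 313 non-cycling ones, and Tyms at 60.3 and 23.8 CPM. Abcg2 stood at 58.7 CPM in columnar, 173 CPM in endothelial-like and 126 CPM in lymphatic-like cells. Upp1 was counted in 0 UMIs of its cycling columnar cells and at 26.6 CPM in the non-cycling ones, and its endothelial-like cells held 94.9 CPM. Treatment, tumor, dissociation and library all differ between this library and the others and cannot be told apart.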
